A study of Mus musculus with 6 samples.

Results

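Histones are the proteins around which DNA is wound, and in the mouse most of them are made from small families of near-identical genes that lie in clusters on a few chromosomes. The genes examined here were all those listed under a symbol that begins with Hist1h to Hist4h or with H2af, together with H3f3a and H3f3b, leaving out symbols marked as pseudogenes by "-ps". The rule found 78 genes among the 26835 gene symbols with values. Of these, 69 were clustered genes, with 6 coding for the linker histone H1, 20 for H2A, 18 for H2B, 12 for H3 and 13 for H4. The other 9 were genes of replacement variants, 7 of the H2A family and 2 of H3.3.

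The measurements came from RNA-seq of macrophages grown from the bone marrow of wild-type BALB/C mice aged 5 to 8 weeks. Marrow cells were cultured for 6 days in medium with 10% serum and 25 ng/ml M-CSF, the growth factor that drives their maturation into macrophages. In one group, the cells then received 10 µg of extracellular vesicles from K7M2 cells, a mouse osteosarcoma line, for 24 h. In the other group, they received PBS for the same time. Each group had 3 libraries from what the submitters call independent experiments. How many animals stood behind each one, and their sex, were not given in the sources used here. The p-values therefore measure the spread between these libraries. The question set by this design is which transcripts differ between macrophages exposed to the vesicles and macrophages given the carrier alone.

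The clustered genes are known as replication-dependent histone genes: cells make their mRNAs mainly during S phase, when new DNA has to be packed into nucleosomes. These mRNAs have no introns and end in a short hairpin, the histone stem-loop, in place of a poly(A) tail. Replacement variants such as H3.3, H2A.Z and macroH2A are made throughout the cell cycle from polyadenylated mRNAs and enter chromatin independently of replication. Whether the libraries were made from polyadenylated RNA was not given in the sources used here.

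The stem-loop, which is the feature that marks this family of mRNAs, was read from the GENCODE transcript models (release M21, build GRCm38) and is shown for 1 gene each of H1, H2A, H2B and H3 and for the 3 forms found in H4. A stem of 6 bases that begins with GG, a loop of 4 bases and perfect pairing were required. The loop had to begin with T and end with C, with only C or T between them. Other forms were not searched. Capitals mark the 16 bases of stem and loop.
Hist1h1c: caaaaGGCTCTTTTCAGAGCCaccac
Hist1h2ao: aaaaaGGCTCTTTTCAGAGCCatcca
Hist1h2bm: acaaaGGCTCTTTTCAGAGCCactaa
Hist1h3b: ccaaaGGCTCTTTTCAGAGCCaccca
Hist1h4f: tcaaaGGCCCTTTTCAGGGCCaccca
Hist1h4j: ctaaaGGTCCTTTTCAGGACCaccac
Hist1h4a: ccaaaGGCCCTTCTCAGGGCCgccca
These runs lie at chr13:23739507-23739532 for Hist1h1c, chr13:21810893-21810918 for Hist1h2ao, chr13:21722501-21722526 for Hist1h2bm and chr13:23752815-23752840 for Hist1h3b. They lie at chr13:23551286-23551311 for Hist1h4f on the minus strand, chr13:21735432-21735457 for Hist1h4j and chr13:23760795-23760820 for Hist1h4a on the minus strand, with the other genes on the plus strand. Each lies in a transcript of 1 exon, between the stop codon and the 3′ end of the model. A stem-loop was found in the models of 36 of the 78 genes, all of them clustered. The form shown for Hist1h3b was in 26 genes, 3 of H1, 10 of H2A, 8 of H2B and 5 of H3. The 10 H4 genes with a stem-loop all had another stem: 7 had the form of Hist1h4f, 2 that of Hist1h4j and 1 that of Hist1h4a, which has the stem of Hist1h4f with another loop. In the other 33 clustered genes no letters of this pattern are in the model, and no replacement variant's model held them.

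Promoters of 300 bases, 250 before and 50 after the transcription start, were taken from RefSeq (build GRCm38.p6) and matched for 69 of the 78 genes. No match was found for Hist1h2aj, Hist1h2al, Hist1h2bc, Hist2h2be, Hist1h3a, Hist1h3f, Hist2h4, H2afx and H2afy3. The 4 below show the motif patterns of a clustered H2B gene, a clustered H4 gene, the H2A.Z.2 gene and an H3.3 gene. Capitals mark the letters TATAAA (the TATA box), CCAAT (the box bound by NF-Y) and ATTTGCAT (the octamer bound by OCT1), on either strand, so that CCAAT on the other strand reads ATTGG and TATAAA reads TTTATA. Each motif was searched on its own, and matches were allowed to overlap.
Hist1h2bk: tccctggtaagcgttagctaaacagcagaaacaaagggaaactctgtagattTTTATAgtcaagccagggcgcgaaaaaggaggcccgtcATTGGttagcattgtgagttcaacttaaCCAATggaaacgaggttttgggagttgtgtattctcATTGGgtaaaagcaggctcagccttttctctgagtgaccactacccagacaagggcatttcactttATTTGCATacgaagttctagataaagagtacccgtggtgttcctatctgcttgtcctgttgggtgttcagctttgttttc
Hist1h4k: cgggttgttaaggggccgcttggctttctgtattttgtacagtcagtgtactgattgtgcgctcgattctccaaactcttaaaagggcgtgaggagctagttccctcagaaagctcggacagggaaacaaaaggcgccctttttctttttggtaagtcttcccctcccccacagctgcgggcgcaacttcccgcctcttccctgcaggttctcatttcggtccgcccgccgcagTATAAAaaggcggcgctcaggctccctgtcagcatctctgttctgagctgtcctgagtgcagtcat
H2afv: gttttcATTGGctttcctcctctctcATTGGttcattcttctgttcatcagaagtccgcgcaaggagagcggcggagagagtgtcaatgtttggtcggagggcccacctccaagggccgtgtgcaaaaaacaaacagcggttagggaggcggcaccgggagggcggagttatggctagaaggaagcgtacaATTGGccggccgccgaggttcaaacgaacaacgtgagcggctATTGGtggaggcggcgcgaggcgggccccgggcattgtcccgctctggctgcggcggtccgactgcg
H3f3a: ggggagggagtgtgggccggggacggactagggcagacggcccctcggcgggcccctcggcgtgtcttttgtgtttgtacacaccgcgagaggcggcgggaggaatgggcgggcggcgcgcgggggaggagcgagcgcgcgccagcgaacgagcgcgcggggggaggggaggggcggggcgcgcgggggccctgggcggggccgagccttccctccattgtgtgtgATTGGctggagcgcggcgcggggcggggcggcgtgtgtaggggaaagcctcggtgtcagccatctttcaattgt
They span chr13:22035571-22035870 (plus strand, Hist1h2bk), chr13:21750504-21750803 (minus strand, Hist1h4k), chr11:6444394-6444693 (minus strand, H2afv) and chr1:180813556-180813855 (minus strand, H3f3a). Hist1h2bk held the letters of all 3 motifs, with the octamer starting 30 bases before the start. Its only TATAAA was on the other strand, 198 bases before the start, away from where a TATA box usually lies. Those letters are also in the promoter of Hist1h2ah, which starts 302 bases away on the opposite strand. Hist1h4k held TATAAA alone, 16 bases before the start, H2afv held CCAAT at 4 places and H3f3a held it at 1 place.

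Over the 62 clustered genes with a promoter, TATAAA was present in 35 (56.5%), CCAAT in 53 (85.5%) and ATTTGCAT in 13 (21%). Among all 27025 RefSeq promoters of that length the shares were 14.2%, 37.9% and 1.75%. TATAAA beginning 20 to 40 bases before the start, where a TATA box usually lies, was found in 12 of the 62 (19.4%) and in 2.22% of all promoters. The classes were not alike. CCAAT was in every matched H1, H2A, H2B and H3 promoter (6, 18, 16 and 10 genes) but in 3 of 12 H4 promoters. The octamer was in 7 of 18 H2A and 6 of 16 H2B promoters and in none of the other clustered classes. Windows of H2A and H2B genes that lie head to head overlap, and both strands were searched. The same letters can therefore be counted for both genes, as with the octamer of Hist1h2ah and Hist1h2bk. The H2A, H2B and 62-gene counts are thus not all of separate stretches of DNA. Of the 7 replacement variant promoters, 1 held TATAAA, 6 held CCAAT and 1 held the octamer. The letters TTTGGCGC, tried as an E2F-type motif, were in none of the 69 and in 0.537% of all promoters. These matches describe letters in a window and say nothing about whether a factor was bound.

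In macrophages given vesicles, transcripts of nearly all clustered histone genes were lower than with PBS, to 24.7% of the PBS level in sum, while the replacement variants went in both directions. Levels are given in FPKM, a fragment count taken relative to the length of the transcript and the size of the library, so that genes of different length can be set side by side. Each gene was tested with limma on log2(FPKM + 1), and a gene was called lower or higher at an adjusted p under 0.05 over 13009 genes with at least 1 FPKM in 3 or more libraries. A log2 difference below is always vesicles minus PBS on that scale, which understates the change of weakly expressed genes.

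The test took in 74 of the 78 genes. Of these, 67 were called lower and 2 higher, and 5 were not called. Over all genes tested, 35.6% were called lower and 18.4% higher. The 4 genes under the expression filter were Hist1h1t, Hist1h2aa, Hist1h2ba and H2afy3, and 1 gene, Hist3h2ba, passed it through its PBS libraries alone. A call with a log2 difference of -1 or less was made for 62 of the histone genes, against 893 of the 13009 genes, or 6.86%. In 69 of the 78 genes every vesicle library lay below every PBS library. They include Hist1h1t and Hist1h2ba, which were not tested, whereas the share over all genes, 42.0%, is of genes tested. In 2 genes every vesicle library lay above every PBS library, against 21.8% of all genes. The median log2 difference of all genes was -0.12, and it moved to 0.03 when libraries were scaled by the median of their ratios. The split of calls over all genes moved with it, from 4631 lower and 2395 higher to 3066 lower and 3789 higher. No called histone gene changed sign under that scaling.

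Clustered genes and replacement variants gave different counts, a difference that was not tested itself. Of the 66 clustered genes tested, 64 were called lower, 2 were not called and none was called higher by limma, nor did any have an unadjusted p under 0.05 in that direction. Their median log2 difference was -2.12. Of the 8 replacement variants tested, 3 were called lower, 2 higher and 3 were not called, with a median of -0.43. Since bulk RNA was measured, fewer cells that make histone mRNA and less of it per cell cannot be told apart.

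**Figure D1:**
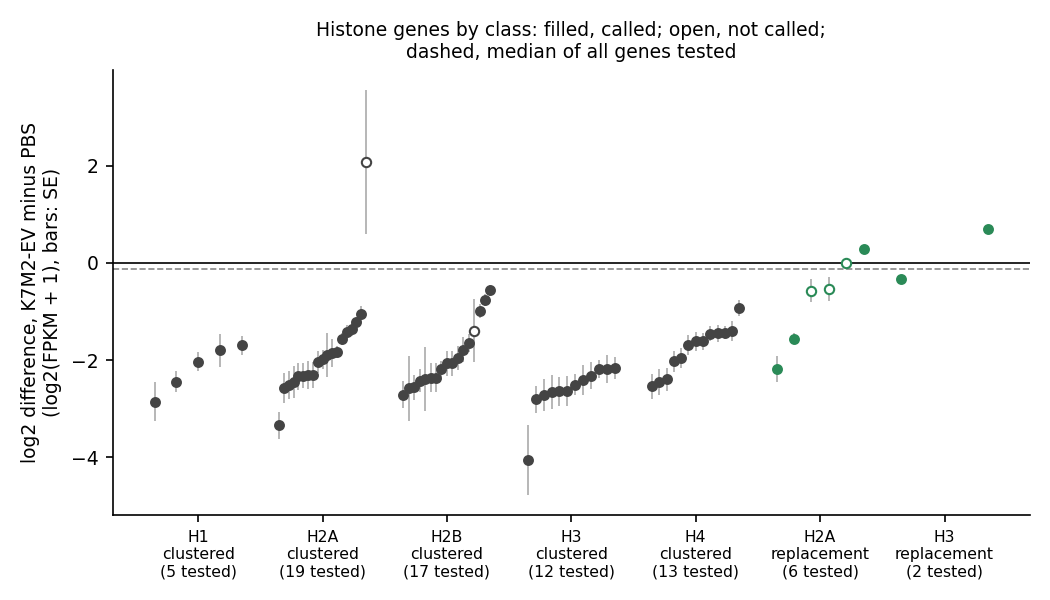
Each point is 1 histone gene that passed the expression filter, with its log2 difference on the log2(FPKM + 1) scale (vesicles minus PBS) and its SE on the vertical axis and its class and kind on the horizontal axis. Filled points were called and open points were not, and the dashed line is the median of all genes tested, -0.12. All clustered genes but Hist2h2aa1 lie below 0, while the replacement variants lie on both sides.

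Summed over the 69 clustered genes, the PBS libraries 1, 2 and 3 held 6691, 9010 and 7932 FPKM (7878 ± 1160, mean ± SD), and the vesicle libraries held 1546, 2635 and 1665 FPKM (1948 ± 597). The vesicle mean was 24.7% of the PBS mean. The highest vesicle library stayed well under the lowest PBS library. As a share of all fragments, clustered histone transcripts took 0.414%, 0.554% and 0.492% with PBS and 0.098%, 0.165% and 0.104% with vesicles.

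By class, the summed level fell least in H2A and H4 and most in H3. The H2A sum includes Hist2h2aa1, at 90.4 FPKM in the PBS mean and 101 in the vesicle mean. The value of that gene is uncertain, as described below, and the place of H2A in this order rests in part on it. With vesicles, the summed FPKM stood at 28.6% of PBS for H2A, 28.1% for H4, 23.4% for H2B, 22.3% for H1 and 17.3% for H3. The median log2 differences per gene ran from -1.62 in H4 through -1.98 in H2A, -2.04 in H1 and -2.07 in H2B to -2.57 in H3. These orders describe the classes, and the differences between classes were not tested. The 9 replacement variants together stood at 213 ± 19.4 FPKM with PBS and at 148 ± 5.20 with vesicles.

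**Figure D2:**
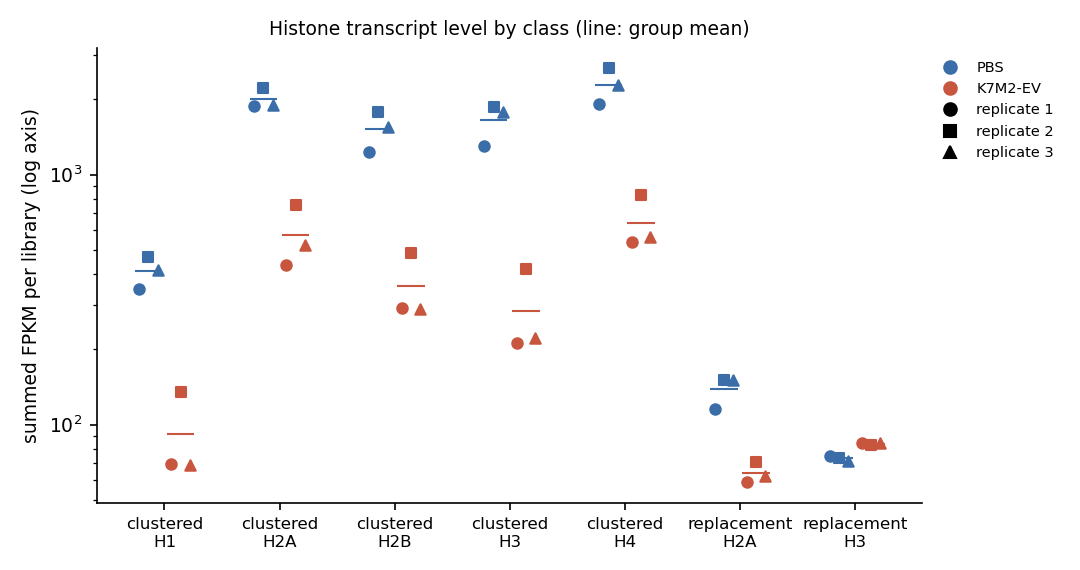
Summed FPKM per library on a log axis for the 5 clustered classes and the 2 groups of replacement variants, with PBS in blue, vesicles in red, a symbol for each replicate number and a line at the group mean. In every clustered class and in replacement H2A the vesicle libraries lie below the PBS libraries, whereas in replacement H3 they lie above them, at 82.7 to 84.6 against 71.3 to 75.1 FPKM.

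The H1 histones bind the linker DNA between nucleosomes. All 5 that passed the filter, Hist1h1a to Hist1h1e, were called lower. Hist1h1b, which codes for H1.5, was at 111, 169 and 142 FPKM with PBS and at 11.9, 36.2 and 13.9 with vesicles, or 14.7% of PBS (log2 difference -2.86 ± 0.41 SE, limma adjusted p = 0.0014). Hist1h1c, the gene of H1.2, was at 115, 131 and 133 FPKM against 26.4, 41.5 and 24.4 FPKM (-2.04 ± 0.20, limma adjusted p = 0.00027). Hist1h1e, the gene of H1.4, was at 62.6, 80.9 and 68.5 FPKM against 19.2, 28.0 and 17.1 FPKM (-1.70 ± 0.19, limma adjusted p = 0.00049). In each of these genes the groups did not overlap, and vesicle library 2 was the highest of its group. Hist1h1d, the gene of H1.3, stood at 14.5% of its PBS level and Hist1h1a, the gene of H1.1, at 29.4%. Hist1h1t, the testis-specific H1, reached at most 0.213 FPKM in any library.

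H2A pairs with H2B in the nucleosome core. Of 19 clustered H2A genes tested, 18 were called lower. Hist1h2af had the largest fall of the class, from 118, 163 and 156 FPKM with PBS to 9.78, 20.6 and 11.5 FPKM with vesicles, or 9.58% of PBS (-3.35 ± 0.27, limma adjusted p = 0.00012). Hist1h2ao, the H2A gene with the highest mean, was at 272, 379 and 317 FPKM against 63.7, 106 and 66.6 FPKM (-2.04 ± 0.22, limma adjusted p = 0.00042). Hist1h2ak, Hist1h2an and Hist2h2ac stood at 17.7%, 15.4% and 33.5% of their PBS levels. Hist1h2al, annotated as a processed pseudogene apart from the clusters at chr13:51202727-51203065, was at 180, 237 and 192 FPKM against 66.5, 90.3 and 77.1 FPKM, and was called lower as well. Hist1h2aa, the testis H2A gene, was listed at 0 in 5 of 6 libraries.

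Hist2h2aa1, named here after its values were seen, did not follow the others. It was at 259, 9.12 and 3.19 FPKM with PBS and at 51.2, 138 and 113 with vesicles, with PBS library 1 above every other library (log2 difference 2.08 ± 1.48, limma adjusted p = 0.28). Without PBS library 1 it was called higher (log2 difference 3.85, limma adjusted p = 0.0039). Its single-gene value is uncertain for 2 reasons that the annotation shows. All of its 100-base windows also occur in other gene models, its neighbour Hist2h2aa2 among them. It also overlaps Gm20634, a longer transcript on the same strand at chr3:96245554-96248509 that runs on to the end of Hist2h3c1.

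The values of these overlapping models went in opposite directions between libraries. Gm20634 was at 1.43, 69.0 and 64.6 FPKM with PBS and at 6.22, 0.427 and 0.787 with vesicles. It was thus low in the PBS library where Hist2h2aa1 was high, and high in the 2 PBS libraries where Hist2h2aa1 was low. After these values were seen, FPKM was multiplied by the annotated length in kb and summed over Hist2h2aa1, Gm20634 and Hist2h3c1. This gave 236, 330 and 306 FPKM × kb over the locus with PBS (291 ± 49.1) and 53.0, 82.2 and 85.1 with vesicles (73.4 ± 17.7). The locus as a whole thus stood at 25.3% of PBS in that measure, with no overlap between the groups. The 24.7% for all clustered genes came from summed FPKM without the length and without Gm20634, so the 2 percentages are unlike measures. Hist2h2aa2, the other copy, was called lower, from 132 ± 15.4 to 49.0 ± 9.46 FPKM. The FPKM of Hist2h2aa1 and Hist2h2aa2 without Gm20634 summed to 374, 154 and 140 in the PBS libraries and to 96.5, 197 and 155 in the vesicle libraries, and these sums overlapped.

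Of 17 clustered H2B genes tested, 16 were called lower. Hist2h2bb, the one with the highest mean, was at 191, 289 and 237 FPKM with PBS and at 45.8, 80.8 and 45.7 with vesicles (-2.07 ± 0.26, limma adjusted p = 0.00078). Hist1h2bk, whose promoter is shown above, was at 161, 243 and 193 FPKM against 40.4, 67.1 and 36.3 FPKM (-2.06 ± 0.26, limma adjusted p = 0.00077). Hist1h2bm had the largest fall of the class, to 15.0% of PBS (-2.71 ± 0.28, limma adjusted p = 0.00034). Hist1h2bn and Hist1h2bg stood at 17.1% and 31.8%. The falls of Hist1h2bc and Hist2h2be, named after their values were seen, were among the smallest of the clustered genes, to 58.4% of PBS in both.

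A few H2B genes had a library far from the rest of its group. Hist1h2bq was called lower with vesicle values of 0.239, 7.71 and 4.37 FPKM against 18.8, 25.6 and 22.8 with PBS. Its near-identical neighbour Hist1h2br, named after its values were seen, was not called, with 3.19, 20.7 and 19.4 FPKM against 3.23, 5.74 and 2.59 (-1.39 ± 0.65, limma adjusted p = 0.12). In each of these 2 genes a library with replicate number 1 stands low where the partner does not, and their sums (PBS 36.8 ± 13.0 FPKM, vesicles 7.96 ± 5.06 FPKM) did not overlap between the groups. The Hist1h2bq call was lost without PBS replicate 2 or 3 or without replicate 3 in both groups, and Hist1h2br was called lower without PBS replicate 1. Hist1h2be, also named afterwards, had vesicle values of 4.57, 5.97 and 0.141 FPKM against 14.9, 20.1 and 18.4, and its call was lost when any 1 PBS library was left out. Hist1h2ba, the testis H2B gene, was at 0.711, 1.22 and 1.12 FPKM with PBS and at 0.108, 0.235 and 0.325 with vesicles, below the filter.

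H3 and H4 form the tetramer at the centre of the nucleosome. All 12 clustered H3 genes were called lower. Hist1h3h, the clustered gene with the highest PBS mean, was at 310, 460 and 421 FPKM with PBS and at 48.5, 99.6 and 48.7 with vesicles (-2.65 ± 0.31, limma adjusted p = 0.00057). Hist1h3i was at 223, 322 and 301 FPKM against 35.0, 72.6 and 33.7 FPKM (-2.63 ± 0.31, limma adjusted p = 0.00064). Hist1h3g and Hist1h3b stood at 13.8% and 15.5% of PBS, and Hist1h3c and Hist1h3e at 16.5% and 22.0%. All of these had PBS and vesicle values that did not overlap.

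Hist2h3c1 had the largest log2 difference of any histone gene, -4.06 ± 0.73 (limma adjusted p = 0.0037), but also an uneven vesicle group. It was at 43.7, 66.2 and 61.9 FPKM with PBS and at 2.54, 0.161 and 8.96 with vesicles. It lies wholly inside Gm20634 and shares all of its windows with it, so the low vesicle values can be read only together with the locus sum given above. Hist2h3c2, the other copy, stood at 16.5% of PBS. Summed, the 2 genes were at 115 ± 21.3 FPKM with PBS and at 13.4 ± 3.23 with vesicles.

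All 13 H4 genes were called lower. Hist1h4h was at 320, 429 and 371 FPKM with PBS and at 73.5, 125 and 79.5 with vesicles (-2.03 ± 0.21, limma adjusted p = 0.00039). Hist1h4f was at 243, 345 and 300 FPKM against 38.8, 74.0 and 42.2 FPKM, the largest fall of the class (-2.54 ± 0.26, limma adjusted p = 0.00034). Hist1h4k, Hist1h4j, Hist1h4m and Hist1h4n stood at 18.7%, 18.2%, 36.7% and 36.2% of PBS. Hist1h4i, named after its values were seen, had the smallest fall of the class, to 51.5%.

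Near-identical genes share reads, and how the deposited values divide such reads between copies was not given in the sources used here. The share of each gene's 100-base windows that occur in another gene's transcript models was taken as a measure of this. In the 13 clustered genes with under 10% of windows shared, all 12 tested were called lower, with a median log2 difference of -1.71. They include Hist3h2ba, which passed the filter through PBS alone. In the 27 genes with 10% to under 50% shared, all 25 tested were called lower, with a median of -2.03. In the 29 genes with 50% or more shared, 27 were called lower, with a median of -2.30. Values of single genes in this last group are uncertain. The span of 31 of the 78 genes also overlaps another gene with values, on the same strand for 7 of them, and strand was not stated for the counting. The overlap of Hist1h2be with Hist1h1e, which joins 2 histone genes, is among the 7. Hist1h1a, Hist1h1b, Hist1h4d, Hist2h2be and Hist2h4 have no shared window, and all 5 were called lower.

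Calls were also counted by where the annotated model ends. Models that end within 100 bases of the stem-loop, as the processed mRNA would, belonged to 18 genes, of which 17 were called lower, with a median of -2.04. Models that run over 500 bases past it, as in Hist1h1c, Hist1h1d and Hist1h2ac, belonged to 11 genes, all called lower, also with a median of -2.04. Among the 33 clustered genes without the stem-loop letters in the model, 29 of 30 tested were called lower, with a median of -2.26.

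The fall ran along all the gene clusters. The Hist1 cluster on chromosome 13 was split wherever genes lay over 100 kb apart. Its first stretch, chr13:21715763-21837530, held 19 genes, of which 18 were called lower, and its sum stood at 21.7% of PBS. The second, chr13:22035164-22043676, held 5 genes, all called lower, at 25.3%. The third, chr13:23531050-23764406, held 29 genes, of which all 28 tested were called lower, at 23.5%. The testis genes Hist1h2aa and Hist1h2ba lie beyond it, at chr13:23933773-23934851, and neither passed the filter.

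The Hist2 cluster, chr3:96219865-96270132, held 10 genes, of which 9 were called lower, and stood at 34.8% of PBS. Its sum includes Hist2h2aa1, at 90.4 FPKM in the PBS mean and 101 in the vesicle mean. Since the value of that gene is uncertain, the 34.8% does not show that Hist2 fell less than the Hist1 stretches. The 2 genes of the Hist3 cluster, chr11:58948920-58956830, stood at 39.0% in sum. Hist3h2a was called lower, as was Hist3h2ba, which passed the filter through PBS alone. Hist4h4, alone among the clustered genes at chr6:136801553-136804415, stood at 35.2% and was called lower. Its neighbour among the histone genes is the replacement variant H2afj, at chr6:136808244-136810074.

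**Figure D3:**
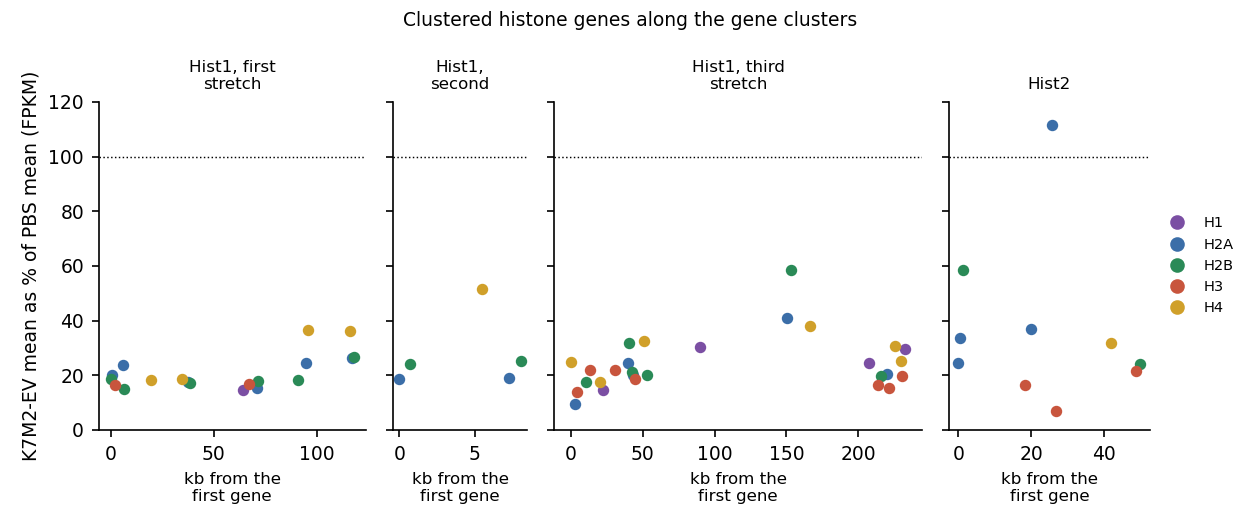
The vesicle mean as a percentage of the PBS mean in FPKM (vertical axis) for each tested gene of the 3 main Hist1 stretches and of Hist2, against the distance in kb from the first gene of the stretch, coloured by class. The dotted line marks 100%. The genes lie between 6.79% and 58.4% all along the stretches, apart from Hist2h2aa1 at 111%.

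H2A and H2B genes often lie head to head with a shared promoter region. There were 13 such pairs, with starts 176 to 306 bases apart, and in 11 of them both genes were called lower. In the other 2, Hist1h2br was not called and the testis pair was not tested. Within pairs the log2 differences lay a median of 0.37 apart. Hist1h2ak and Hist1h2bn were close, at -2.51 and -2.56. The pair farthest apart was Hist2h2ac and Hist2h2be, at -1.56 and -0.56, and Hist2h2be is also the weaker gene of this pair, with 3.63 FPKM in PBS against 178.

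The replacement variants of H2A moved in different ways. H2afx codes for H2A.X, the variant that is phosphorylated at DNA breaks, and its mRNA is known both with the stem-loop and with a poly(A) tail. It was at 64.9, 98.4 and 94.3 FPKM with PBS and at 13.6, 26.9 and 15.3 with vesicles, or 21.6% of PBS (-2.19 ± 0.28, limma adjusted p = 0.00084), a value within the range of the clustered H2A genes. H2afv, the gene of H2A.Z.2, was at 11.3, 11.4 and 12.9 FPKM against 3.40, 4.08 and 2.74 FPKM, or 28.7% of PBS (-1.56 ± 0.12, limma adjusted p = 9.9e-05). In both genes the groups did not overlap.

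The gene of the other H2A.Z protein, H2afz, was weaker at 2.29, 4.30 and 4.68 FPKM with PBS and at 1.81, 1.86 and 3.06 with vesicles, and the groups overlapped. It was not called (-0.53 ± 0.25, limma adjusted p = 0.11), but was with the replicate number as a block (adjusted p = 0.029 in limma) and without PBS replicate 1 (adjusted p = 0.019 in limma). Of the windows of H2afz, 25.7% also occur in models of 4 other genes, so its level is uncertain. MacroH2A carries a large extra domain and is known for its place on silent chromatin. H2afy, the gene of macroH2A1, rose from 11.7, 11.6 and 11.9 FPKM to 15.3, 13.9 and 14.7 FPKM (0.29 ± 0.05, limma adjusted p = 0.0033), with no overlap. H2afy2, the gene of macroH2A2, was low, with 1.40, 2.00 and 1.02 FPKM against 0.458, 1.24 and 0.363 FPKM (-0.57 ± 0.23, limma adjusted p = 0.076), and was called lower with the replicate block (adjusted p = 0.0052 in limma).

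H2afj, the gene of H2A.J, was at 23.5, 23.5 and 26.3 FPKM with PBS and at 24.1, 23.0 and 26.0 with vesicles. Its log2 difference was -0.0043 ± 0.071 (limma adjusted p = 0.96), and 0.18 when libraries were scaled by the median of their ratios. H2afy3, annotated as a processed pseudogene, reached at most 0.336 FPKM in any library.

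H3.3 is made from a pair of genes that code for the same protein. H3f3a rose from 30.7, 31.7 and 28.5 FPKM with PBS to 48.3, 50.4 and 50.3 FPKM with vesicles, or 164% of PBS (0.70 ± 0.06, limma adjusted p = 0.00015). H3f3b fell from 44.4, 41.8 and 42.9 FPKM to 36.3, 32.3 and 34.0 FPKM, or 79.5% of PBS (-0.32 ± 0.06, limma adjusted p = 0.0048). The order of the 2 genes in listed FPKM was thus reversed. H3f3b was above H3f3a in every PBS library, and H3f3a was above H3f3b in every vesicle library. Of the windows of H3f3a, 20.8% also occur in models of 15 other genes, against 1.9% and 2 genes for H3f3b. H3f3a also overlaps Gm17275 and H3f3aos on the opposite strand. Since strand and the division of shared reads were not given, the level of H3f3a and this order are uncertain. With the median-of-ratios scaling the log2 difference of H3f3b was -0.13 and it was not called (limma adjusted p = 0.19), whereas H3f3a stayed called at 0.88.

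**Figure D4:**
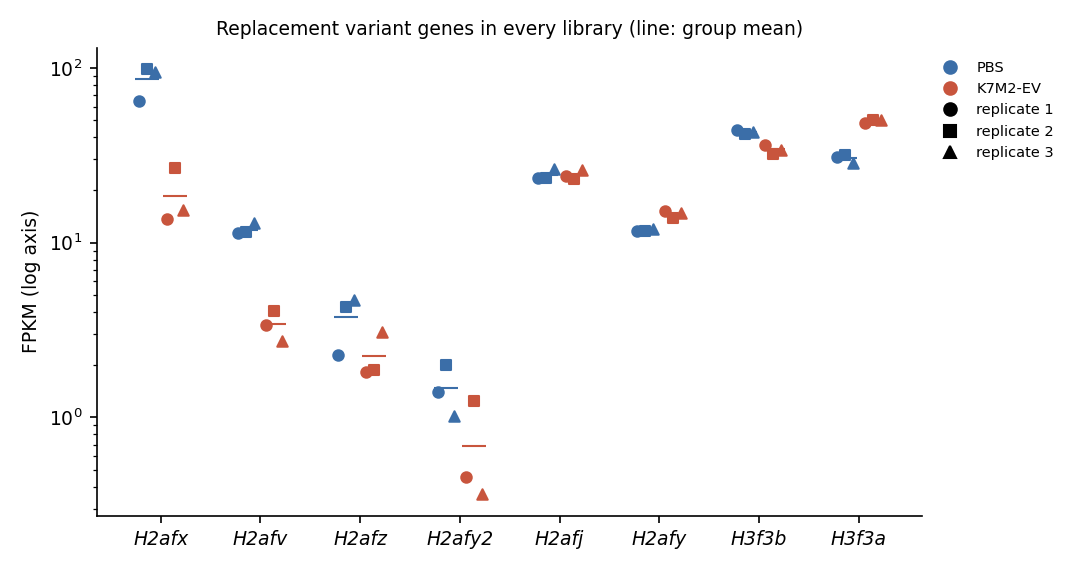
FPKM in every library on a log axis for the 8 replacement variant genes that passed the filter, with PBS in blue, vesicles in red, a symbol for each replicate number and a line at the group mean. H2afx and H2afv stand at 21.6% and 28.7% of PBS, the H2afj groups overlap, and H3f3a and H2afy lie above PBS in all 3 vesicle libraries.

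With clustered H3 transcripts at 17.3% of PBS and the H3.3 genes at 114% in sum, the makeup of the summed H3 FPKM differed between the groups. Clustered mRNAs lack a poly(A) tail, and whether polyadenylated RNA was selected was not given. The shares here and in the figure thus describe FPKM in these libraries and may differ from shares of the mRNA in the cells. H3f3a and H3f3b together took 5.43%, 3.79% and 3.84% of the summed FPKM of all H3 members with PBS (4.35 ± 0.93) and 28.4%, 16.4% and 27.5% with vesicles (24.1 ± 6.68). All vesicle libraries lay above all PBS libraries. For H2A, the replacement variants took 5.77%, 6.36% and 7.40% with PBS (6.51 ± 0.83) and 12.0%, 8.54% and 10.7% with vesicles (10.4 ± 1.73), again without overlap. These shares follow from the gene values above, uncertain ones among them, so no separate test was made of them.

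**Figure D5:**
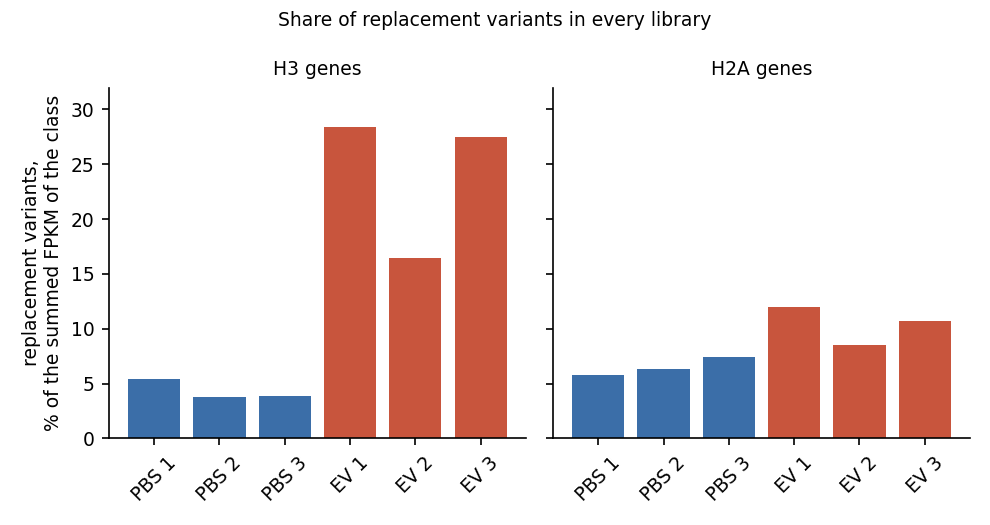
The share of replacement variants in the summed FPKM of all H3 genes (left) and all H2A genes (right), in percent, for each of the 3 PBS libraries in blue and the 3 vesicle libraries in red. The H3 share is 3.79% to 5.43% with PBS and 16.4% to 28.4% with vesicles, and the H2A share is 5.77% to 7.40% and 8.54% to 12.0%.

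Other genes of histone biology were listed for comparison. Of 4 histone genes outside the naming rule, Cenpa, the centromeric H3, stood at 13.0% of PBS (3.79 ± 0.43 against 0.491 ± 0.24 FPKM). It passed the expression filter through its PBS libraries alone, so its call of lower adds nothing to these values. H1f0, the linker histone of resting cells, was called lower at 65.4%, and H1fx was not called, with 1.83, 2.35 and 1.66 FPKM against 2.35, 2.41 and 2.35. H3f3c, a copy of the H3.3 gene that GENCODE annotates as a processed pseudogene, was higher at 90.2, 87.3 and 82.2 FPKM with vesicles against 49.3, 48.8 and 47.5 with PBS (0.82 ± 0.06, limma adjusted p = 6.0e-05).

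Of 21 tested genes that transcribe histone genes or process their mRNA, 6 were called lower, 3 higher and 12 were not called. Their median log2 difference was -0.12, the median of all genes. These counts lie near the shares over all genes tested, 35.6% called lower and 18.4% higher. Slbp, whose product binds the stem-loop, was at 2.85, 4.20 and 3.56 FPKM with PBS and at 1.74, 2.13 and 2.12 with vesicles (-0.59 ± 0.12, limma adjusted p = 0.0072). Npat, the coactivator of the clustered genes, went from 4.77 ± 0.35 to 2.92 ± 0.14 FPKM (-0.56 ± 0.07, limma adjusted p = 0.00063). Casp8ap2, a partner of Npat in the histone locus body, and Lsm11, a subunit of the U7 particle that cuts histone mRNA, were called lower at 72.3% and 59.3% of PBS. Cpsf3, the nuclease that makes the cut, was called higher at 127%.

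Of 20 genes listed for replication-coupled histone chaperones and histone supply, 10 were called lower, 2 higher and 8 were not called. Their median was -0.24, and the shares over all genes tested were 35.6% lower and 18.4% higher. Asf1b was at 6.09, 10.7 and 10.8 FPKM with PBS and at 1.82, 3.03 and 1.72 with vesicles (-1.66 ± 0.24, limma adjusted p = 0.0016). Chaf1a and Chaf1b, subunits of the assembly factor CAF-1, stood at 45.7% and 30.0% of PBS. Both were called lower, but Chaf1b passed the filter through its PBS libraries alone. Among the other 19 genes of this list, 9 were called lower.

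Of 16 chaperones and remodellers of replacement variants, 5 were called lower, 2 higher and 9 were not called, with a median of -0.12. Neither count exceeds the share over all genes tested, which was 35.6% called lower and 18.4% higher. Daxx, an H3.3 chaperone, was called higher (4.07 ± 0.25 against 6.53 ± 0.41 FPKM, 0.57 ± 0.07, limma adjusted p = 0.00054), whereas Atrx, its partner, was at 89.7% of PBS and was not called. Hira, the other H3.3 chaperone, was called lower at 80.5% of PBS (-0.26 ± 0.07, limma adjusted p = 0.017), but at -0.10 with the median-of-ratios scaling it was not called.

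Genes of the cell cycle moved the same way as the clustered histone genes. The share called lower over all genes tested was 35.6%. Of 29 tested genes of S phase and DNA replication, 28 were called lower and 1 was not called, with a median of -0.99. Of these, Ccne2, E2f2 and Tyms passed the filter through their PBS libraries alone, and 25 of the other 26 were called lower. Rrm2 was at 17.9% of PBS and Pcna at 21.6%. All 20 mitosis genes were called lower, with a median of -1.74, among them Mki67 from 40.7 ± 8.77 to 7.11 ± 2.25 FPKM. Here Ccnb1 and Nusap1 passed through PBS alone, and the other 18 were all called lower. Their part in the histone result was not tested.

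Within both groups, replicate 2 was the highest library for 58 of the 69 clustered genes, among them all 13 H4 genes and 18 of 20 H2A genes. The same held for all 20 mitosis genes, 15 of 30 S phase genes and 11 of 12 mesenchymal markers. It held for 7 of 22 histone transcription and processing genes and 12 of 20 replication-coupled chaperone and supply genes. Among variant chaperones and remodellers it held for 7 of 16, and among macrophage markers for 0 of 10. The share over all genes was not counted, so these counts have no such share to be set against. None of the 12 mesenchymal markers was listed at 0 in all libraries. Their summed level ran from 140 to 330 FPKM in the PBS group and from 221 to 607 FPKM in the vesicle group, with replicate 2 highest in both. Its part in the histone values was not tested, but without replicate 2 in both groups all 67 calls of lower histone genes held and the median of the clustered genes was -2.27. The 10 macrophage markers were all expressed, with sums of 4396 to 5317 FPKM in PBS libraries against 12860 to 14350 FPKM in vesicle libraries. Summed neutrophil markers were 3.02 to 6.11 FPKM in PBS libraries against 39.7 to 44.8 FPKM in vesicle libraries, most of it S100a8, while lymphocyte and erythroid markers summed to at most 0.796 and 0.774 FPKM in any library.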

How the data were processed

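RNA-seq of 6 libraries was analysed, 3 per group. The deposited FPKM values were made by the authors with CASAVA 1.8, HISAT2 2.1.0, StringTie 1.3.4b and edgeR on GRCm38, per the submitters' processing notes. Strand, RNA selection and the handling of multiply mapped reads are not given in the sources used here. Of 26883 rows, 1 had no value and 47 repeated a symbol and were left out. Low values that are nearly whole multiples of 1 fragment (72.2% to 73.1% within 0.1, where chance gives 20%) give 21330530 to 25676717 fragments per library, too few whole values for a count test.

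Gene positions came from GENCODE M21 (99.5% of symbols matched). limma 3.58.1 in R 4.3.3 (trend and robust) was fitted without a block to log2(FPKM + 1) for the 13009 genes that reached 1 FPKM in 3 or more libraries, with Benjamini-Hochberg adjustment, and tested on simulated data. Same-numbered libraries tended to deviate together (correlations 0.317, 0.294 and 0.209, against -0.307 to 0.0232 between libraries with different numbers). Whether the numbers pair the samples is not stated by a label. With 3 libraries per group these correlations cannot settle it, so the block was kept as an alternative to the main fit. Alternatives were another pseudocount, other filters, 2 other scalings, the replicate block and leaving out libraries. Python 3.11.15 was used for sequences and sums.

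The members and lists were chosen with earlier results of these data known. Named genes are all replacement variants, per clustered class the 4 highest and the 3 largest falls, genes under the filter that reach 1 FPKM, and from each list the largest changes and textbook core genes. Genes named beyond this rule, as near-identical copies, pairs or extremes, were chosen after their values were seen.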

Additional observations from a re-analysis of the deposited data

How the results depend on the processing

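The number of histone genes called lower was 67 and stayed between 62 and 69 over all alternatives, and that of clustered genes, 64, between 60 and 66. No called gene changed sign. H2afj, which was not called, changed sign with the median-of-ratios scaling (0.18, limma adjusted p = 0.12). With the replicate block, 5 replacement variants were called lower in place of 3, H2afy2 and H2afz being added, and the block changed no other call. Leaving out libraries gave 1 to 3 histone genes called higher in place of 2, 1 to 2 replacement variants called higher in place of 2, and 0 to 1 clustered genes called higher in place of 0. The clustered gene was Hist2h2aa1, without PBS replicate 1 or replicate 1 in both groups, and the replacement variant lost was H2afy, without replicate 3 in both groups (limma adjusted p = 0.054), where fewer samples were tested. That setting also ended the calls of Hist1h1a, Hist1h2bq, Hist1h4i, Hist2h2be and H3f3b, as well as Slbp and Casp8ap2. Hist1h2be was not called with a pseudocount of 0.1 (limma adjusted p = 0.060), and Hist1h2aj was not called without replicate 1 in both groups. The cause was not tested. Of the 4 genes under the filter, 2 were called lower when no filter was used, Hist1h1t (-0.20, limma adjusted p = 0.025) and Hist1h2ba (-0.72, limma adjusted p = 0.0076), which adds to the upper limit of 66 clustered genes, while Hist1h2aa and H2afy3 were not called (limma adjusted p = 0.44 and 0.69). Values this low rest on few fragments.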
